A study of Homo sapiens with 9 samples.

Results

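Mitochondrial ribosomal proteins, the nuclear-encoded proteins of the ribosome inside mitochondria, were followed at the level of their messenger RNA in cultured lung cancer cells. The members were the genes of the deposited expression table that are typed as protein-coding, lie on an assembled chromosome and have a name of MRPS or MRPL followed by a number. This gave 73 genes of 45754 in the table, or of 18751 protein-coding genes on assembled chromosomes, with 26 named for the small subunit (MRPS) and 47 for the large subunit (MRPL). Of these, 72 passed the filter on low values, and the lowest value of any of them in any library was 5.75 FPKM, a count of sequenced fragments corrected for gene length and library size. The exception, MRPS24, had 0 to 3 fragments per library.

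RNA was sequenced from 9 libraries, 3 in each of 3 groups, of cells labelled H441, a human line from a non-small cell lung cancer. The control cells received 0.1% DMSO for 24 h, and the treated cells received BSGL or RSGL, compounds known here only by these code names, at 10 µM for 24 h. The labels do not say whether the treated cells also received DMSO, or whether the 3 libraries of a group came from separate cultures, so that the p-values measure only the spread between these libraries. A genotype tag of the labels names H460 in the control and BSGL groups and A549 in the RSGL group, both of them other lung cancer lines.

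Markers of the lung lineage that H441 is known for went against that label. None of 9 such genes, among them SFTPB and NKX2-1, passed the filter, and the highest value of any was 1.24 FPKM. A second list held 12 genes that KEAP1 mutation raises, as it does in A549 and H460. Of these 11 passed, and they summed to 4285 to 4394 FPKM in control, 3999 to 4081 in BSGL and 2366 to 2444 in RSGL. The highest single value, 2001 FPKM, was that of ALDH1A1, so the sums do not show how each gene of the list differed. Epithelial markers, 3 of 4 of which passed, summed to 1063 to 1091 FPKM in control, 1054 to 1104 in BSGL and 736 to 775 in RSGL. No gene was at 10 FPKM or more in every control library and under 0.1 FPKM in every RSGL library, nor the other way round. Leukocyte, fibroblast and endothelial markers were at or under 5.31 FPKM in every library. The libraries held 16720414 to 18738947 fragments, and the members took 0.462 to 0.523% of them.

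The mitochondrial ribosome translates the few messenger RNAs that mitochondrial DNA encodes, all of them for subunits of the respiratory chain and the ATP synthase. Its RNA comes from mitochondrial DNA, whereas all its proteins are made in the cytosol from nuclear genes and imported. Compared with bacterial ribosomes it has shorter RNA and more protein, so that many members descend from bacterial ribosomal proteins and others are found only in mitochondria. The promoters of these genes are known to be bound by the ETS factor GABPA, by NRF1 and by YY1.

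Because many of these genes are known to share promoter motifs, the region around the start of transcription is shown for the members with the largest changes under RSGL that have an entry in the table of RefSeq promoters (GRCh38.p14). For the falls, only members with a motif in the stretch are shown. This passed over MRPS25, which had none. The stretches were chosen after the values were seen. Each stretch runs from 120 bases before to 30 bases after the start. Capitals mark CCGGAAG, the core bound by ETS factors, or AAGATGGC, the core bound by YY1, on either strand.
MRPL20: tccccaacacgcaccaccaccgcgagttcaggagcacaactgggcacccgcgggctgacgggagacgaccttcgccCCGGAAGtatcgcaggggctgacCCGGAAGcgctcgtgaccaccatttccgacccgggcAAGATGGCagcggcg
MRPL48: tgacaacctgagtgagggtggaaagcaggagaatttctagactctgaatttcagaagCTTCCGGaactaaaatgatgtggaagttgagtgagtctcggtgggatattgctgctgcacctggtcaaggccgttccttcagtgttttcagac
MRPL54: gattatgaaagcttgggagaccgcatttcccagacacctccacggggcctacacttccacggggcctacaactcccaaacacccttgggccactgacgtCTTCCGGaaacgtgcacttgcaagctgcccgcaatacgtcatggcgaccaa
MRPL27: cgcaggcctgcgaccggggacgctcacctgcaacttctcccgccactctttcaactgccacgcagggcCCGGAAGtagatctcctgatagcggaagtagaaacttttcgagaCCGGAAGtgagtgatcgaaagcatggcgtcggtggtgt
MRPS7: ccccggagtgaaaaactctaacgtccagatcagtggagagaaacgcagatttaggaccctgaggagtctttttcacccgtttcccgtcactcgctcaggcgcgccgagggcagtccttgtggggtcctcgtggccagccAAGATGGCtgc
MRPL24: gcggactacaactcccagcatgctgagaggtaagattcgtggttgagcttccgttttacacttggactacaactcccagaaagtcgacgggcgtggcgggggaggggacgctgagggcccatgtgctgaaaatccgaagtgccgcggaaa
MRPS10: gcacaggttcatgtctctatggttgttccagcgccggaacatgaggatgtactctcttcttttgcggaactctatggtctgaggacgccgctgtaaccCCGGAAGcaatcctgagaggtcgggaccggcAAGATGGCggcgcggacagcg
MRPL20, MRPL48, MRPL54, MRPL27 and MRPS7 were among the members that fell under RSGL, and MRPL24 and MRPS10 are the pair that rose most. The MRPL20 stretch, at chr1:1407264-1407413 on the minus strand, holds 2 ETS cores before the start and 1 YY1 core just after it. MRPL27, at chr17:50373155-50373304 on the minus strand, holds 2 ETS cores. MRPL48, at chr11:73787754-73787903 on the plus strand, and MRPL54, at chr19:3762562-3762711 on the plus strand, hold 1 ETS core each, read on the opposite strand. MRPS7, at chr17:75261759-75261908 on the plus strand, holds 1 YY1 core. Of the risers, MRPS10, at chr6:42217832-42217981 on the minus strand, has both cores, and MRPL24, at chr1:156741059-156741208 on the minus strand, has neither.

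Over the whole windows of 300 bases (250 before and 50 after the start), 65 of the 73 members had an entry. The ETS core was in 28 of these 65 genes (43.1%), beside 23.4% of the 8821 tested protein-coding genes with a window. The YY1 core was in 18 members (27.7%), beside 6.96%. GCATGCGC, the core bound by NRF1, was in 5 members (7.69%), beside 6.73%, and the E-box CACGTG, which MYC can bind, was in 8 (12.3%), beside 12.9%. TGATGCAA, bound by ATF4 with C/EBP, was in 0 of the 65, beside 0.737%. Counted per window, the ETS core was in 37.5% of 80 member windows, 17.5% of those of tested protein-coding genes and 10.3% of all 35116 windows in the table. The YY1 core was in 23.8%, 5.08% and 2.89%. Among the members called lower under RSGL, 46.2% had the ETS core and 23.1% the YY1 core. Among those not called the shares were 44.1% and 29.4%. A match says only that these letters are in the window.

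Most members were expressed at 10 to 100 FPKM in control cells: 67 of the 72 tested had a mean in this range, 4 were above and 1 was below. MRPL12, the protein of the flexible stalk that recruits translation factors, was highest, at 224 ± 8.39 FPKM (mean ± SD, n = 3). MRPL51 (192 ± 28.6) and MRPL33 (119 ± 19.4) came next in the large subunit, where MRPL44 (12.7 ± 0.149), MRPL22 (13.3 ± 1.47) and MRPL1 (14 ± 0.912) were lowest. The control libraries of MRPL22 overlapped those of both others. In the small subunit MRPS34 (98.2 ± 0.813), MRPS26 (92.7 ± 1.76) and MRPS7 (90.8 ± 1.4) led, and MRPS9 (12.5 ± 0.229), MRPS14 (10.3 ± 1.38) and MRPS25 (7.65 ± 0.27) closed the order. The highest mean was 12.8 times the lowest in the small subunit and 17.6 times in the large. Libraries of a group agreed closely, with a median coefficient of variation over members of 5.64% in control, 3.18% in BSGL and 4.39% in RSGL. MRPL23 varied most in each of the 3 groups, by 20.2%, 11.3% and 26.3%.

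The first comparison asks how these messages differed between cells given RSGL and control cells. The compound and the differing genotype tag of the RSGL group cannot be told apart from the labels. Differences were tested with limma on log2(FPKM + 1), adjusted by Benjamini-Hochberg over all 12775 tested genes and called at an adjusted p under 0.05. A large share of the transcriptome differed: 54.8% of tested genes were called, 27.2% higher and 27.6% lower. Among the members, 33 of 72 (45.8%) were called, 5 higher (6.94%) and 28 lower (38.9%). The median difference of the members was -0.08 on the log2 scale, against 0.00 over all genes. All tested genes include other gene types and lower levels than the tested members do. With a filter at 5 FPKM, 5041 of 7978 genes were called, and with protein-coding genes only, 6711 of 10909. Each of these 2 fits called 7 members higher and 28 lower. The changes were small, and in bulk RNA fewer cells with a message and less of it per cell cannot be told apart. The mean in RSGL was between 76.5% and 126% of the control mean for every tested member, and 0 of 72 changed by 2-fold. Libraries of the 2 groups did not overlap for 34 members (47.2%), beside 61.2% of all tested genes.

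By subunit, 3 small subunit members rose and 10 fell of 25 (12% and 40%), with a median difference of -0.03. In the large subunit 2 rose and 18 fell of 47 (4.26% and 38.3%), with a median of -0.10. Of all tested genes 27.2% were higher and 27.6% lower. The 52% called in the small subunit is near the 54.8% of all tested genes, and the 42.6% in the large subunit is under it. The plot of differences by member shows both subunits as a continuous spread around or somewhat under 0 and not as a uniform shift. Summed over members, the small subunit stood at 1043 ± 30.8 FPKM in control, 1060 ± 11.7 in BSGL and 988 ± 16.3 in RSGL, and the large subunit at 2232 ± 144, 2289 ± 22.0 and 2069 ± 81.4 (mean ± SD, n = 3 each). The sums of the small subunit in RSGL, 973 to 1005 FPKM, lay under those of control, 1018 to 1077 FPKM. Those of the large subunit overlapped, at 1986 to 2149 FPKM in RSGL and 2143 to 2398 FPKM in control.

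**Figure D1:**
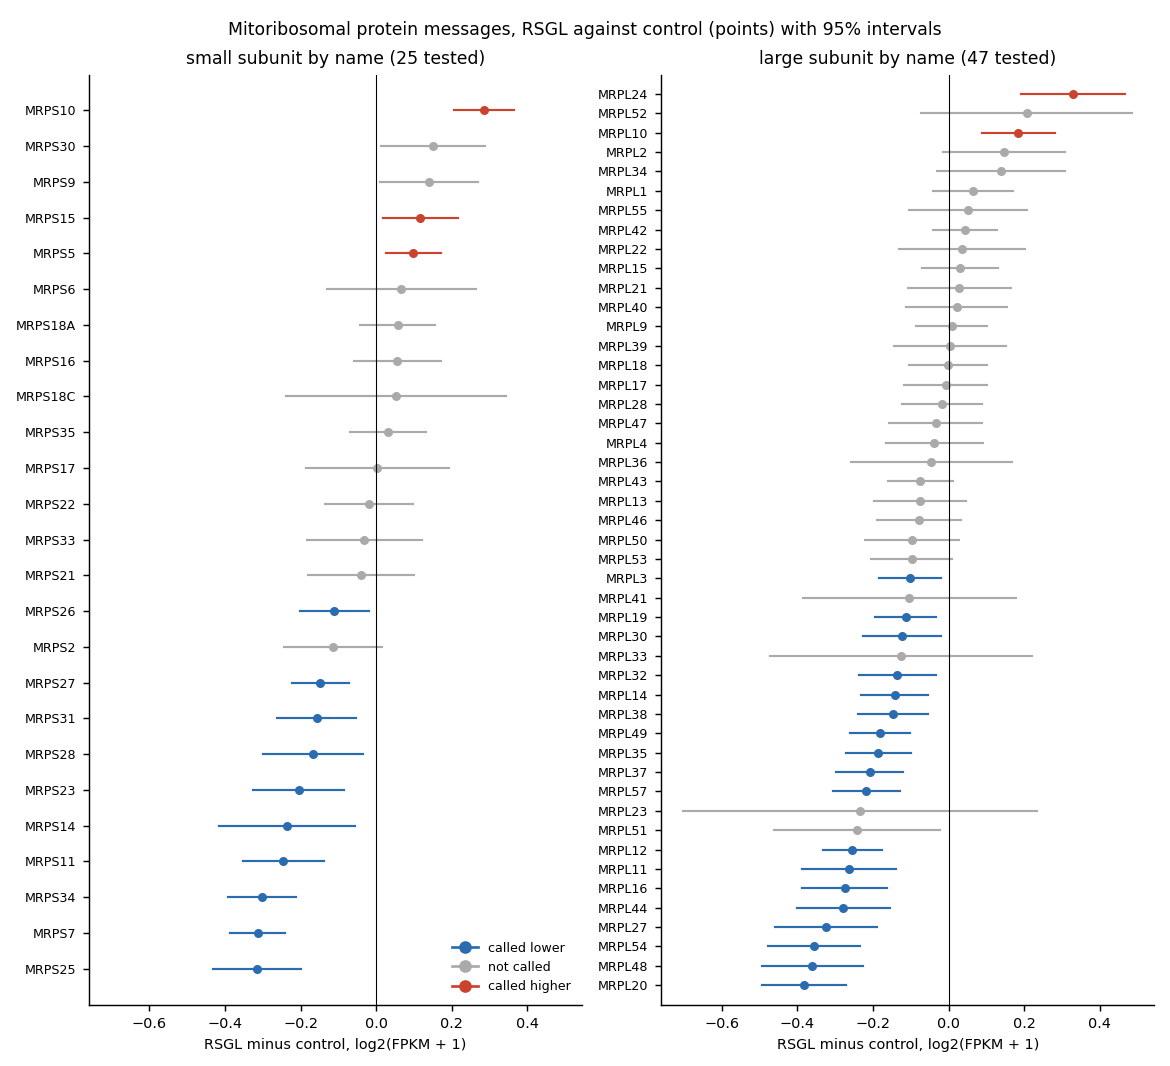
Difference between RSGL and control for each tested member, on the log2(FPKM + 1) scale (points, with 95% intervals from limma), in order within the small and the large subunit. Blue marks the 28 members called lower, red the 5 called higher and grey the 39 not called.

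MRPL20, a bacterial-type protein of the large subunit, fell most. It was at 62.2, 61.1 and 65.5 FPKM in control, 64.6, 64.8 and 62.2 FPKM in BSGL and 45.3, 47.2 and 51.9 FPKM in RSGL. Every RSGL library was under every other library, with a log2 difference of -0.38 (SE 0.0497, adjusted p = 1.2e-04) against control. MRPL54, found only in mitochondria, was at 33, 34.8 and 37.7 FPKM in control, 38.4, 35.3 and 36.3 FPKM in BSGL and 25.8, 28 and 27.9 FPKM in RSGL. Its RSGL libraries were also the 3 lowest, with a log2 difference of -0.36 (SE 0.0547, adjusted p = 3.6e-04). MRPL48, a protein of the central protuberance, where the large subunit carries structures without a bacterial counterpart, was at 18.5, 21.2 and 20.2 FPKM in control, 17.9, 18.9 and 18.3 FPKM in BSGL and 14.4, 15.1 and 16.5 FPKM in RSGL. BSGL and control overlapped and RSGL lay under both, with a log2 difference of -0.36 (SE 0.0595, adjusted p = 5.8e-04).

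MRPL27, the bacterial L27 homologue that reaches toward the peptidyl transferase centre, was at 110.3, 108 and 121 FPKM in control, 109, 118 and 112 FPKM in BSGL and 83, 95 and 93.1 FPKM in RSGL. It fell by 0.32 on the log2 scale (SE 0.0601, adjusted p = 0.0012), and no RSGL library reached a control one. MRPL44, which has a domain related to RNase III, was at 12.7, 12.6 and 12.9 FPKM in control, 13, 12.9 and 12.5 FPKM in BSGL and 11, 10.6 and 9.32 FPKM in RSGL, with a log2 difference of -0.28 (SE 0.0546, adjusted p = 0.0017). MRPL16 was at 37.9, 39.5 and 43.3 FPKM in control, 38, 39.8 and 39.4 FPKM in BSGL and 32.9, 31.8 and 34.5 FPKM in RSGL, with a log2 difference of -0.27 (SE 0.0505, adjusted p = 0.0012). MRPL12, the most abundant message of the set, was at 221, 216 and 233 FPKM in control, 229, 232 and 236 FPKM in BSGL and 182, 192 and 187 FPKM in RSGL, and its difference of -0.25 (SE 0.0347) had an adjusted p of 1.6e-04. The RSGL libraries of MRPL44, MRPL16 and MRPL12 were likewise below all other libraries. The other 11 large subunit members called lower were MRPL11, MRPL57, MRPL37, MRPL35, MRPL49, MRPL38, MRPL14, MRPL32, MRPL30, MRPL19 and MRPL3, with differences from -0.26 to -0.10. Of these the calls of MRPL14, MRPL32, MRPL30, MRPL19 and MRPL3 were lost in at least 1 of 22 fits. Neither MRPL51 (-0.24, adjusted p = 0.060) nor MRPL33 (-0.12, adjusted p = 0.51) was called. The RSGL libraries of MRPL51 (151, 161 and 171 FPKM) still lay under its control libraries (173, 178 and 225 FPKM). It was called lower in 5 of 22 alternative fits. The groups of MRPL33 overlapped.

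In the small subunit the falls were led by MRPS25, MRPS7 and MRPS34. MRPS25, specific to mitochondria, was at 7.96, 7.5 and 7.48 FPKM in control, 8.14, 7.13 and 7.59 FPKM in BSGL and 5.75, 6.12 and 5.98 FPKM in RSGL, with a log2 difference of -0.32 (SE 0.0517, adjusted p = 5.6e-04). MRPS7, the homologue of a bacterial head protein that binds the small rRNA, was at 90.2, 92.4 and 89.8 FPKM in control, 86.4, 90 and 85.3 FPKM in BSGL and 74, 73.8 and 70.8 FPKM in RSGL, with a log2 difference of -0.31 (SE 0.0322, adjusted p = 2.4e-05). MRPS34, also specific to mitochondria, was at 98.3, 98.9 and 97.3 FPKM in control, 94.5, 98.9 and 104 FPKM in BSGL and 82.9, 77.5 and 78 FPKM in RSGL, with a log2 difference of -0.30 (SE 0.0402, adjusted p = 1.4e-04). For all 3 genes the RSGL libraries lay under every control and every BSGL library. MRPS11 fell by 0.25 (SE 0.0478) and MRPS23 by 0.20 (SE 0.0536) on the log2 scale. MRPS14 was at 10.8, 8.72 and 11.3 FPKM in control, 10.4, 9.96 and 9.92 FPKM in BSGL and 8.37, 8.22 and 9.04 FPKM in RSGL. Here 1 control library reached the RSGL range, and the difference of -0.24 (SE 0.0802) had an adjusted p of 0.031, a call that was lost in 7 of 22 alternative fits. The remaining 4 called lower, MRPS28, MRPS31, MRPS27 and MRPS26, differed by -0.17, -0.16, -0.15 and -0.11. The call of MRPS26 was lost in 12 of 22 fits, and those of MRPS28 and MRPS31 in at least 1. MRPS28 overlapped between the groups, its highest RSGL library (58.2 FPKM) lying above its lowest control library (56.8 FPKM).

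**Figure D2:**
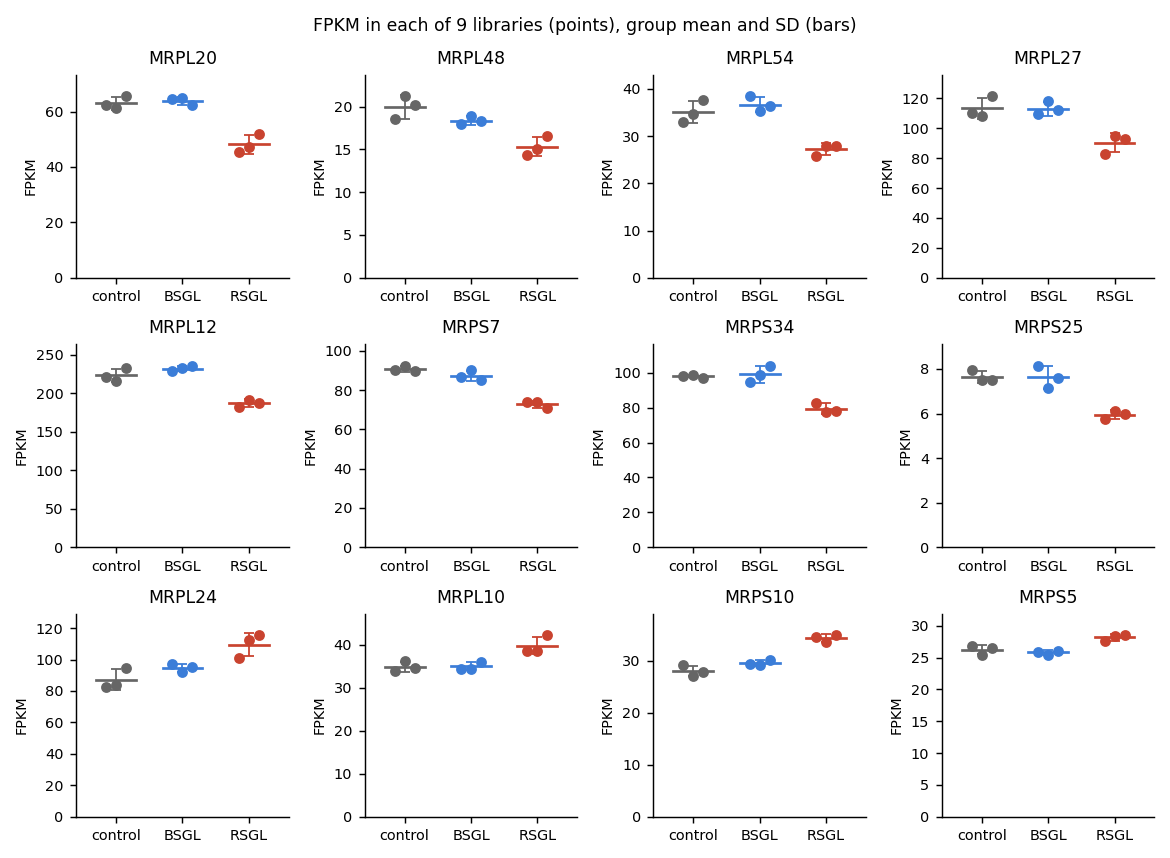
FPKM of 12 members in each of the 9 libraries (points), with the group mean and SD (bars), each axis starting at 0. In the 8 members of the upper and middle rows every RSGL library lies under every control library, and in the 4 members of the lower row every RSGL library lies above every control library.

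Only 5 members rose, and all 5 are homologues of bacterial ribosomal proteins. MRPL24 was at 82.4, 83.9 and 94.7 FPKM in control, 96.9, 91.7 and 95.2 FPKM in BSGL and 101, 112 and 115 FPKM in RSGL. Its RSGL libraries were the 3 highest, with a log2 difference of 0.33 (SE 0.0614, adjusted p = 0.0013). MRPS10 was at 29.2, 27.2 and 27.9 FPKM in control, 29.5, 29.2 and 30.3 FPKM in BSGL and 34.7, 33.7 and 34.9 FPKM in RSGL, again with RSGL above all others, and a log2 difference of 0.28 (SE 0.0353, adjusted p = 8.7e-05). MRPL10, which forms the base of the stalk to which MRPL12 binds, was at 33.9, 36.1 and 34.6 FPKM in control, 34.4, 34.4 and 36 FPKM in BSGL and 38.6, 38.6 and 42.2 FPKM in RSGL, with a log2 difference of 0.18 (SE 0.043, adjusted p = 0.0048). The stalk protein MRPL12 and its anchor MRPL10 had calls of opposite sign. MRPS5 (26.8, 25.5 and 26.4 FPKM in control, 27.6, 28.4 and 28.5 in RSGL) and MRPS15 (53.9, 55.8 and 59.9 in control, 60.7, 59.6 and 63.7 in RSGL) rose by 0.10 (adjusted p = 0.027) and 0.12 (adjusted p = 0.048). These are weak calls, lost in 7 and 12 of 22 alternative fits. Those of MRPL24, MRPS10 and MRPL10 held in all 22.

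Grouped by origin, the homologues of bacterial proteins showed both directions, with 5 higher and 15 lower of 44 tested (45.5% called) and a median difference of -0.04. Of the 27 tested members found only in mitochondria, 0 were higher and 13 were lower (48.1% called), with a median of -0.11. Both shares are under the 54.8% called among all tested genes. By direction, 11.4% of the homologues were higher and 34.1% lower, beside 27.2% and 27.6% of all tested genes. Of the members found only in mitochondria, 0% were higher and 48.1% lower. The difference between these 2 classes was not tested, and they hold only genes with an MRP name. Of 4 small subunit proteins without such a name, 1 (DAP3) was called higher under RSGL and 2 (PTCD3 and AURKAIP1) lower. These were not sorted by origin. MRPS30 and MRPS18A are named for the small subunit, but structures of the human particle place them in the large one. MRPS30 was at 20.1, 22.5 and 20.4 FPKM in control, 21.9, 21 and 20.2 FPKM in BSGL and 22.9, 25.5 and 21.8 FPKM in RSGL. MRPS18A was at 23.5, 25.1 and 26.3 FPKM in control, 26.7, 25.7 and 25.1 FPKM in BSGL and 26.8, 25.8 and 25.5 FPKM in RSGL. Neither was called, with differences of 0.15 (adjusted p = 0.064) and 0.06 (adjusted p = 0.31).

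Libraries were not level within the control and RSGL groups. Control 3 held the highest control value for 51 of the 72 tested members. RSGL 3 held the highest RSGL value for 41, and RSGL 1 the lowest for 40. Taken as a percentage of each gene's control mean, the median large subunit member was at 97.3, 97.5 and 106% in the 3 control libraries, 101, 101 and 102% in BSGL, and 92.2, 93.8 and 98.2% in RSGL. For the small subunit the medians were 98.0, 98.7 and 102% in control, 103, 99.8 and 101% in BSGL, and 94.0, 98.7 and 101% in RSGL. The excess in control 3 was larger for short genes. For the 36 tested members at or under the median gene length of 1418 bases the median log2 ratio of control 3 to the mean of the other two controls was 0.13, and for the 36 longer members 0.05. Over all tested genes split at the same length it was 0.08 and -0.01. The ratio of RSGL 3 to the mean of RSGL 1 and 2 had the same order, with medians of 0.09 in the shorter and 0.03 in the longer members. Without control 3 the median difference under RSGL was -0.04 in the large subunit, with 4 called higher and 14 lower, and -0.01 in the small subunit, with 3 higher and 8 lower. The part of this library in the result was not tested beyond these values. Leaving out RSGL 2 brought the number of small subunit members called lower from 10 to 6. Without RSGL 1 the median was -0.0007 in the small and -0.05 in the large subunit, and without control 1, control 2, RSGL 2 or RSGL 3 the small subunit median was -0.07, -0.06, -0.06 and -0.06.

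**Figure D3:**
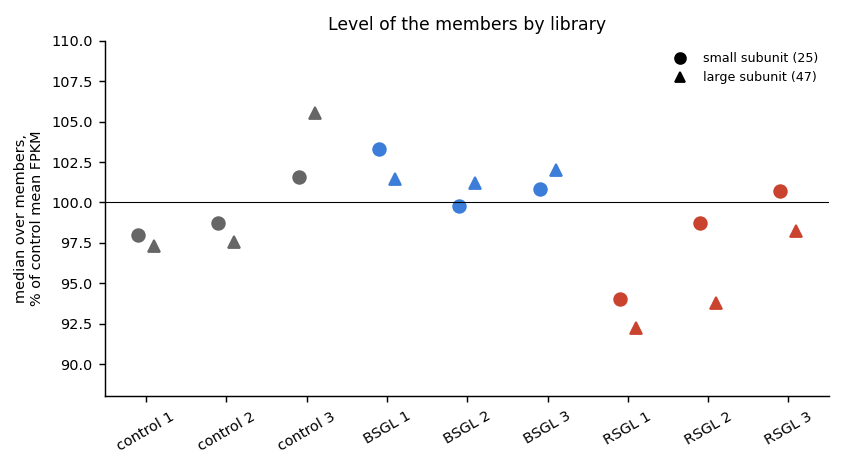
Median over members of FPKM as a percentage of each gene's control mean, for the small subunit (circles, 25 genes) and the large subunit (triangles, 47 genes) in each library; the axis does not start at 0. Control 3 lies above the other control libraries, most for the large subunit, and RSGL 1 is the lowest library for both subunits.

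The second comparison asks whether BSGL, at the same concentration and time, had an effect on these genes. None of the 72 members was called between BSGL and control with limma, and 1 had an unadjusted p under 0.05. Calls were rare over the whole transcriptome as well, at 0.0861% of tested genes. The voom fit on recovered fragments also called 0 members. That 1 gene, MRPS21, was at 43.1, 44 and 48.6 FPKM in control and 53.9, 48.2 and 50.3 FPKM in BSGL, a difference of 0.17 (SE 0.0627) with an adjusted p of 0.64. Members ranged from -0.11 to 0.17 on the log2 scale, and their BSGL means from 92.0% to 112% of control. The 95% intervals of all 72 members lay between -0.50 and 0.47, within the limits of a 2-fold change. Libraries did not overlap for 3 members, MRPL18, MRPS9 and MRPS10, all higher in BSGL, or 4.17% beside 12.8% of all tested genes. The medians were 0.03 in the small and 0.02 in the large subunit, the latter turning to -0.01 with libraries rescaled to a common sum.

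The third comparison sets RSGL against BSGL at matched dose and time. The genotype tags of these groups differ as well, so that compound and tag cannot be told apart here either. The control libraries enter it only through the filter and the shared estimate of the spread. Of all tested genes 54.0% were called, 26.5% higher and 27.5% lower in RSGL. Of the members 4 were higher (5.56%) and 31 lower (43.1%), and libraries did not overlap for 55.6% of members beside 61.2% of all genes. In the small subunit 2 were higher and 12 lower (8% and 48%), with a median of -0.10. In the large subunit 2 were higher and 19 lower (4.26% and 40.4%), with a median of -0.11. Both comparisons share the RSGL libraries, and only 0.0861% of tested genes were called between BSGL and control. Calls alike in both are therefore not 2 separate results. Their share among all tested genes was not counted. Of the members, 27 were called lower against both other groups and 4, MRPL24, MRPS10, MRPL10 and MRPS5, higher against both. MRPL30 was called lower against control alone, and MRPS2, MRPS21, MRPL43 and MRPL51 against BSGL alone. MRPS15 was called higher against control alone, and no test was made of whether these differences differ.

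MRPL54 (-0.42, SE 0.0547, adjusted p = 1.4e-04), MRPL20 (-0.40, SE 0.0497, adjusted p = 8.9e-05) and MRPL27 (-0.32, SE 0.0601, adjusted p = 0.0013) were the large subunit members furthest below BSGL. In the small subunit these were MRPS34, MRPS25 and MRPS7, at -0.31, -0.31 and -0.26. The plot of the 3 comparisons shows the members close around 0 for BSGL and spread mostly downward for RSGL.

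**Figure D4:**
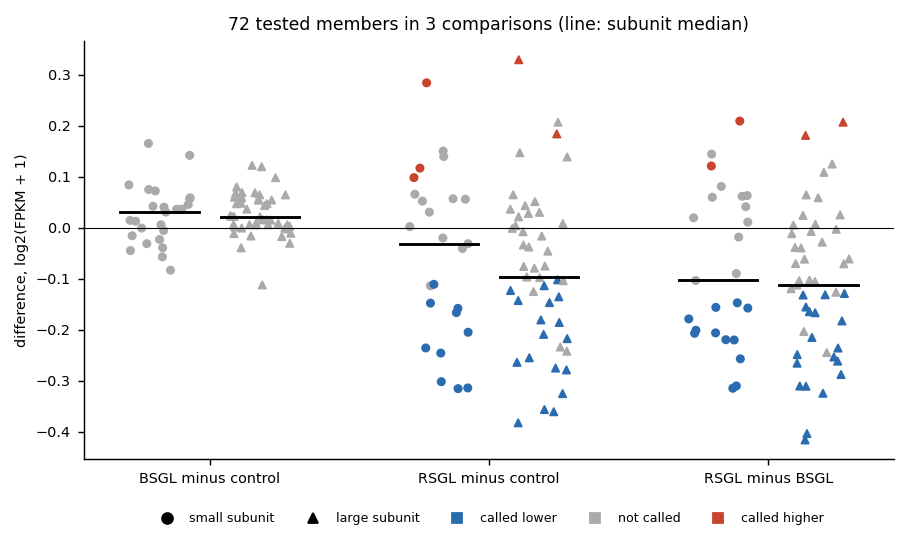
Differences on the log2(FPKM + 1) scale for the 72 tested members in the 3 comparisons, small subunit as circles and large subunit as triangles, coloured by call, with the subunit medians as lines. For BSGL against control all points are uncalled and lie between -0.11 and 0.17, whereas those for RSGL reach from -0.38 to 0.33 against control and from -0.42 to 0.21 against BSGL.

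Proteins of the particle without an MRP name were looked at next. DAP3, a GTP-binding protein of the small subunit, rose under RSGL from 56.2, 56.8 and 61.1 to 62.9, 63.7 and 64.8 FPKM, a log2 difference of 0.13 (SE 0.0373, adjusted p = 0.012). PTCD3, a protein at the entry of the messenger RNA channel, fell from 15.9, 15.1 and 14.3 to 12.4, 11.2 and 11.3 FPKM, and AURKAIP1, another small subunit protein, from 83.5, 79.2 and 86 to 62.5, 66.7 and 67.7 FPKM. Their differences were -0.35 (SE 0.0487) and -0.33 (SE 0.041). CHCHD1 (-0.10) and, in the large subunit, GADD45GIP1 (-0.04) were not called. MRPL58, the peptidyl-tRNA hydrolase built into the large subunit and listed under its older name ICT1, was at 55.2, 57.5 and 61.8 FPKM in control, 54.6, 58.6 and 60.2 FPKM in BSGL and 59.6, 59.5 and 56.8 FPKM in RSGL, and the 3 groups overlapped.

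In the particle's own RNA and the messages it translates, differences reached 0.69 and -0.77 on the log2 scale, outside the range of the members. RNR1, the small rRNA, was at 819, 880.4 and 939 FPKM in control, 964, 885 and 954 FPKM in BSGL and 1399, 1366 and 1494 FPKM in RSGL. RNR2, the large rRNA, was at 4514, 4852 and 5177 FPKM in control, 5140.4, 4789 and 5008 FPKM in BSGL and 7415, 7189 and 7268 FPKM in RSGL. Both were higher in every RSGL library than in any other, with differences of 0.69 (SE 0.0557) and 0.59 (SE 0.0478) against control. How the library preparation treated rRNA is not given here, so these values are not read as the amount of rRNA in the cells. Of the 13 messenger RNAs of mitochondrial DNA, a list added after the other values had been seen, 2 rose and 7 fell, with a median of -0.36, beside 27.2% higher and 27.6% lower among all tested genes. COX1, a subunit of cytochrome c oxidase, averaged 8722 ± 148 FPKM in control and 10089 ± 288 FPKM in RSGL, and ND4, of complex I, 3534 ± 77.1 and 4253 ± 159.6 FPKM. They rose by 0.21 and 0.27. COX3, of the same oxidase as COX1, fell from 5554 ± 176 to 3266 ± 71.6 FPKM, a log2 difference of -0.77 (SE 0.0354, adjusted p = 9.4e-08). ATP8 (-0.73, SE 0.107) and ATP6 (-0.50, SE 0.0383), which are subunits of the ATP synthase, fell as well, as did CYTB (-0.50, SE 0.0331), ND2 (-0.45, SE 0.0498), ND1 (-0.36, SE 0.0405) and ND5 (-0.17, SE 0.028). COX2, ND3, ND4L and ND6 were not called. Some of these genes overlap or adjoin, and how fragments of the polycistronic precursors were assigned is not stated in these sources. Under BSGL 0 of the 13 and 0 of the pair of rRNAs were called.

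**Figure D5:**
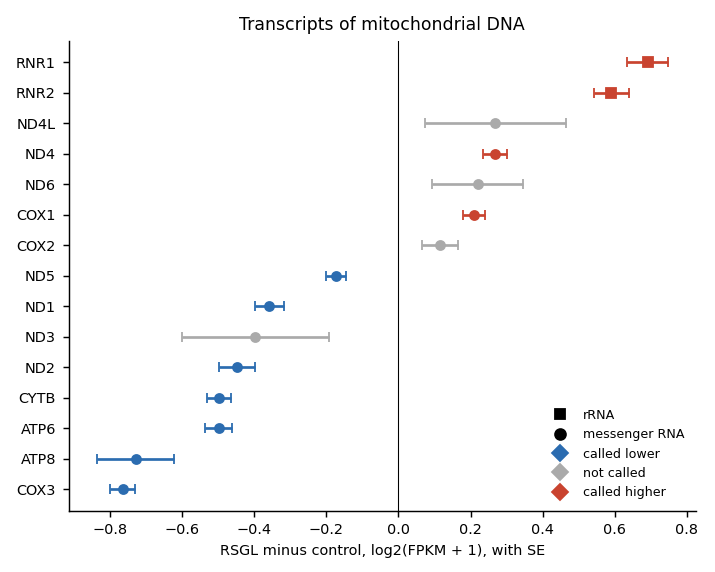
Difference between RSGL and control on the log2(FPKM + 1) scale, with SE, for the 13 messenger RNAs (circles) and 2 rRNAs (squares) of mitochondrial DNA. Both rRNAs, COX1 and ND4 lie to the right of 0 as called rises, and 7 messages from ND5 to COX3 lie to the left as called falls.

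Factors that assemble the particle and modify its RNA changed in both directions, with 3 called higher and 9 lower of 25 tested and a median of -0.08. This is 48% called, beside 54.8% of all tested genes, with 12% higher and 36% lower beside 27.2% and 27.6%. RPUSD3, a pseudouridine synthase, rose from 29.7, 30.9 and 30.5 to 44.2, 42.9 and 42.4 FPKM (0.50, SE 0.0382), and NGRN, which acts with it on the large rRNA, from 97.9, 99.6 and 101 to 131, 131 and 121 FPKM (0.35, SE 0.0445). RCC1L and RPUSD4, known partners of the same module, fell. RCC1L went from 28.8, 27.6 and 27.5 to 18.9, 20.4 and 18.2 FPKM (-0.52, SE 0.0434) and RPUSD4 from 10.9, 12.1 and 10.5 to 8.51, 8.98 and 8.07 FPKM (-0.35, SE 0.0557). TFB1M, also called higher, averaged 0.898 FPKM in control and 1.30 FPKM in RSGL, 145% of control. On the log2(FPKM + 1) scale, which understates changes of low genes, its difference was 0.28.

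Translation factors of mitochondria had 4 called higher and 5 lower of 18, with a median of -0.02. The shares, 22.2% higher and 27.8% lower, were near the 27.2% and 27.6% of all tested genes. GFM2, which recycles ribosomes, rose by 0.26 (SE 0.0471), and C12orf65, a rescue factor also named MTRFR, by 0.19 (SE 0.0438). PDF, which removes the formyl group from new proteins, fell by 0.44 (SE 0.0729), and the elongation factor TSFM by 0.33 (SE 0.057). Genes for copying and transcribing mitochondrial DNA had 2 higher and 8 lower of 18, with a median of -0.14. The 55.6% called is near the 54.8% of all tested genes. The shares by direction were 11.1% higher and 44.4% lower, beside 27.2% and 27.6%. TFAM, which packages and transcribes mitochondrial DNA, fell from 18.6, 20.6 and 19.7 to 14.7, 14.7 and 15.6 FPKM (-0.36, SE 0.0429). MTERF2 differed by -0.37 (SE 0.0535). The polymerase subunits POLG2 and POLG rose by 0.20 (adjusted p = 0.044) and 0.11 (adjusted p = 0.037). Under BSGL no gene of these lists was called.

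Regulators of nuclear genes for mitochondria changed in both directions, with 4 higher and 6 lower of 13 tested (76.9% called, beside 54.8% of all tested genes) and a median of -0.01. DDIT3 and ATF4, factors of the integrated stress response, rose most. DDIT3 went from 12.1, 14.3 and 15.7 to 62.4, 60.5 and 61.5 FPKM (2.06, SE 0.0724) and ATF4 from 106, 109 and 117 to 189.7, 202 and 209.8 FPKM (0.85, SE 0.0481). ATF5, a stress factor linked to mitochondria, fell by 0.52 (SE 0.0355), and PPARGC1A, a coactivator that was near 1 FPKM in control, by 0.45 (SE 0.0814). PPARGC1A averaged 1.08 FPKM in control and 0.527 FPKM in RSGL, 48.8% of control, a fall that the log2(FPKM + 1) scale understates. Of the factors whose cores were searched in the promoters, GABPA (-0.44, SE 0.0764), NRF1 (-0.32, SE 0.0513) and YY1 (-0.15, SE 0.0381) fell, and MYC rose (0.32, SE 0.05). The part of these messages in the level of the members was not tested.

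Some members start close to another gene. A protein-coding gene on the opposite strand began within 1000 bases of the start of 28 of the 73 members. How many other genes have such a neighbour was not counted. MRPS11 and MRPL46 are each other's neighbour and are counted as both member and neighbour. Of the neighbours, 27 passed the filter. Of them 5 were called higher under RSGL, 6 lower and 16 not, beside 54.8% called among all tested genes. For the 12 members called lower, 4 of these neighbours were called higher, 3 lower and 5 not. MRPL27 and EME1, a DNA repair gene whose start is 19 bases away, were both called lower, at -0.32 and -0.25. MRPL57 (-0.22) and SKA3 (-0.68), a kinetochore gene, had overlapping starts. MRPL30 (-0.12) was lower while MITD1, 6 bases away, was higher (0.33). MRPS11 and MRPL46 are transcribed away from each other from starts 51 bases apart, and MRPS11 fell while MRPL46 (-0.08, adjusted p = 0.21) was not called.

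Overlaps limit some of these values. The strand setting of the counting is not stated in these sources, and 27 members overlap a gene on the opposite strand and 5 a gene on the same strand. Those on the opposite strand include MRPS25 (7029 bases with NR2C2), MRPL44 (2164 with WDFY1), MRPS7 (726 with GGA3, 149 with MIF4GD) and MRPL20 (151 with LOC148413). Mean FPKM in control and RSGL was 2.55 and 2.33 for NR2C2, 12.1 and 15.3 for WDFY1, and 11.8 and 13.4 for GGA3. It was 11.4 and 16.6 for MIF4GD and 9.99 and 7.43 for LOC148413. The part of these overlaps in the falls was not tested. MRPS24 overlaps the readthrough gene URGCP-MRPS24, whose mean was 0 FPKM in control, and its near-absent values are not read as a level. Genes of the family outside the rule were 4 protein-coding ones listed on alternate scaffolds and 24 pseudogenes or noncoding RNAs, of which 2 reached 1 FPKM. Of the former, MRPL45 (7.71, 9.43 and 6.41 FPKM in control, 11.4, 11 and 6.7 in RSGL) and MRPS36 (6.1, 6.57 and 9.79 and 8.22, 9.49 and 10.5) overlapped between groups. MRPS18B was listed at 0 in every library. MRPS12 was uneven within groups, at 0.628, 21.8 and 0.457 FPKM in control and 0.705, 3.06 and 0.434 in RSGL, and gives no level. Fragments from near-identical copies could have been split in the authors' counting.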

How the data were processed

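Total RNA was taken up in TRIzol and made into libraries with a NEBNext Ultra kit, per the labels' protocols. Tools named, without roles, in the submitters' processing notes are DESeq2 1.16.1, featureCounts 1.5.0-p3 and HISAT2 2.0.5. The deposited table holds FPKM per gene as computed by the authors, per the file headers, with positions on GRCh38 sequence accessions. The strand setting is not stated in these sources. FPKM times gene length gave whole fragments (100% of values under 300 fragments within 0.01), and the tested members had at least 312 fragments per library, a counting error of 5.66%.

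A gene was tested if 3 or more of the 9 libraries reached 1 FPKM, as log2(FPKM + 1), a scale that understates changes of low genes. limma 3.58.1 in R 4.3.3 (trend and robust empirical Bayes, 1 term per group, all 9 libraries) gave differences, standard errors and 95% intervals. P-values were adjusted by Benjamini-Hochberg over all tested genes and called under 0.05. The fit was also run on simulated data with far fewer changed genes than here, and no call rests on that run. Alternatives were other pseudocounts, filters, scalings, moderation, gene and library sets, a replicate block and limma-voom on the recovered fragments. Named members were the largest called changes (6 per direction and subunit against control, 3 otherwise), the 3 highest and lowest control levels, MRPL12, MRPL58 and members placed apart by structures. Of each companion list the 2 largest called rises and falls were named, and the other genes were named after their values were seen. Motifs were searched as exact letters on both strands. The members and lists were chosen with earlier results of these data known.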

Additional observations from a re-analysis of the deposited data

How the results depend on the processing

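For RSGL against control, 3 of the 5 members called higher (MRPL10, MRPL24 and MRPS10) and 19 of the 28 called lower kept direction and call in all 22 alternative fits, and none of the 33 changed sign. For RSGL against BSGL 3 of 4 and 21 of 31 did. For BSGL against control every fit called 0 members. The small subunit members called higher under RSGL against control were 3. They were 1 with no filter, 1 with libraries rescaled to a common sum, 1 with only the compared groups in the fit, and 5 with a filter at 5 FPKM or with protein-coding genes only. The small subunit median moved from -0.031 to -0.0695 under the common sum, which moved the median of all genes to -0.04 and the median of the large subunit to -0.14. That of RSGL against BSGL moved from -0.10 to -0.15 with MRPS30 and MRPS18A counted in the large subunit. With no filter 1 large subunit member was higher in RSGL than in BSGL instead of 2. Causes of these shifts were not tested, beyond the number of genes tested changing with the filter. The median BSGL difference over members turned from 0.02 to -0.01 under the common sum.

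Leaving out each replicate in turn gave, for RSGL against control, 2 to 3 small subunit members higher, 6 to 10 lower and medians from -0.0739 to -0.0007, and 2 to 4 large subunit members higher, 14 to 19 lower and medians from -0.1125 to -0.0369. For RSGL against BSGL the ranges were 2 to 3 higher, 9 to 12 lower and -0.13 to -0.08 in the small subunit, and 1 to 3 higher, 17 to 21 lower and -0.13 to -0.10 in the large. The 1 riser in the large subunit was reached without BSGL 2, without RSGL 2 and without RSGL 3. Leaving out control 3 and RSGL 3 together, chosen after seeing the data, gave 6 small subunit members lower and 4 large subunit members higher. A replicate block by the number in the labels gave 4 higher and 9 lower in the small and 3 higher and 17 lower in the large subunit. Deviations of same-numbered libraries correlated by -0.21 to 0.12 over 9 pairs, beside -0.11 to 0.15 over 18 pairs of different number. The highest same-numbered value was that of control 3 with RSGL 3. With so few libraries a group, these values cannot settle whether the numbers pair the libraries.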
